A study of Homo sapiens with 24 samples.

Results

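Integrins are membrane receptors made of an α and a β subunit that hold a cell to its matrix, and laminins are the trimeric glycoproteins, each of an α, a β and a γ chain, from which a basement membrane is built. The genes described here were taken by a list of 37 integrin and laminin subunit symbols, matched by Ensembl ID to the deposited table. Of these, 36 had a row (25 integrins and 11 laminins) among the 65180 gene IDs of the table, and ITGA9 was not analysed here. A filter on low counts left 32 for testing (21 integrins and 11 laminins). The list was not drawn up from measured values of these libraries, but it was written with earlier results of them known.

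The cells were HK-2, a human line of proximal tubule epithelium that was immortalised for culture, and the 24 poly(A) libraries form 6 groups. After overnight serum deprivation the cells were kept for 24 h in normoxia with solvent (5 libraries), with BAY 60-2770, which activates the cGMP-making enzyme soluble guanylate cyclase (3), with the profibrotic cytokine TGF-β1 (2 ng/mL, 5 libraries), or with both agents (5). The other 2 groups were kept in hypoxia, 0.3% oxygen, with solvent (3) or BAY 60-2770 (3). The solvents of the 2 agents, DMSO and hydrochloric acid with BSA, were given to the control cells, and BAY 60-2770 is called BAY below. Its labelled concentration, 1 mM, is not settled by the other labels, so the BAY effects belong to an uncertain dose. All groups are cultures of 1 cell line. Replicates are called biological in the labels, with nothing on how they were kept apart, so a p-value here reflects only the variation among these cultures.

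Outside the cell, integrins bind laminin, collagen, fibronectin or RGD-bearing proteins through the α and β heads. Inside, the β tail is gripped by talin and kindlin, which switch the receptor on and tie it to actin. In the kidney tubule, the α3 and α6 subunits serve as laminin receptors at the basal side, and the αV subunit with β6 or β8 binds latent TGF-β and releases the active cytokine. Laminins with the α5 chain dominate the mature tubular basement membrane, and the α3 and β3 chains belong to the laminin of hemidesmosomes, where the α6 and β4 integrin subunits anchor keratin filaments.

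Library totals ran from 78862528 to 105571250 counts. Levels below are given as CPM, counts scaled to a common library size by the TMM method over all libraries. The cell label was checked against markers: KRT8 stood at 618 ± 49.2 CPM and KRT18 at 314 ± 21.1 CPM in normoxic controls (SD, n = 5), while LRP2, CUBN and ANPEP, defining genes of the proximal tubule in the kidney, stood at 0.124, 0.481 and 0.306 CPM. The summed level of 6 fibroblast markers, nearly all COL1A1 and LUM, was 106 to 131 CPM in normoxic solvent and 282 to 294 CPM with TGF-β1, while COL1A2, COL3A1 and PDGFRA, which define fibroblasts, were under 0.25 CPM in every library. Of 7 endothelial markers, PECAM1, CDH5, VWF, KDR and TEK were under 0.2 CPM in every library, ERG went from a mean of 1.29 CPM in normoxic solvent up to 2.76 CPM under TGF-β1, and EGFL7 was expressed, at 34.1 ± 5.32 CPM in normoxic solvent (SD, n = 5) and 46.3 ± 4.42 CPM in hypoxia (SD, n = 3). The part of these genes in the results was not tested. In the 3 groups of 5, libraries fell into 2 sets along the first principal component of their within-group deviations (62.5% of the variance over 10984 genes that are no members). Set A holds solvent replicates 1, 2 and 5, and replicates 1 and 2 of both TGF-β1 groups. Set B holds the others. The labels give no reason for the split. Where a result given below changes when 1 set is used alone, this is stated, not always with the value from the other set.

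At rest, in normoxic solvent, the cells carried mainly the αV, α3, β1 and β3 integrin subunits and a laminin of α5, β1 and γ1 chains. Per kilobase of exon, ITGB1, the common β partner of most matrix-binding α subunits, led at 185 ± 7.91 CPM per kb (SD, n = 5). ITGAV, the α subunit of the RGD receptors, followed at 158 ± 14.02, LAMB1 at 143 ± 10.03, ITGA3 at 93.9 ± 8.10 and ITGB3 at 92.9 ± 10.2 CPM per kb. LAMA5 (69.2 ± 4.99) and LAMC1 (61.1 ± 6.85) came next. ITGB8 stood at 33.8 ± 2.96, LAMA1 at 28.8 ± 2.59 and LAMB2 at 24.5 ± 0.482 CPM per kb. Within this order the libraries of ITGAV and LAMB1, of ITGA3 and ITGB3, of LAMA5 and LAMC1 and of ITGB8 and LAMA1 overlapped. At the other end, ITGA8 had no count in any of the 24 libraries, and ITGA11, ITGAD and ITGAL stayed too low to test.

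**Figure D1:**
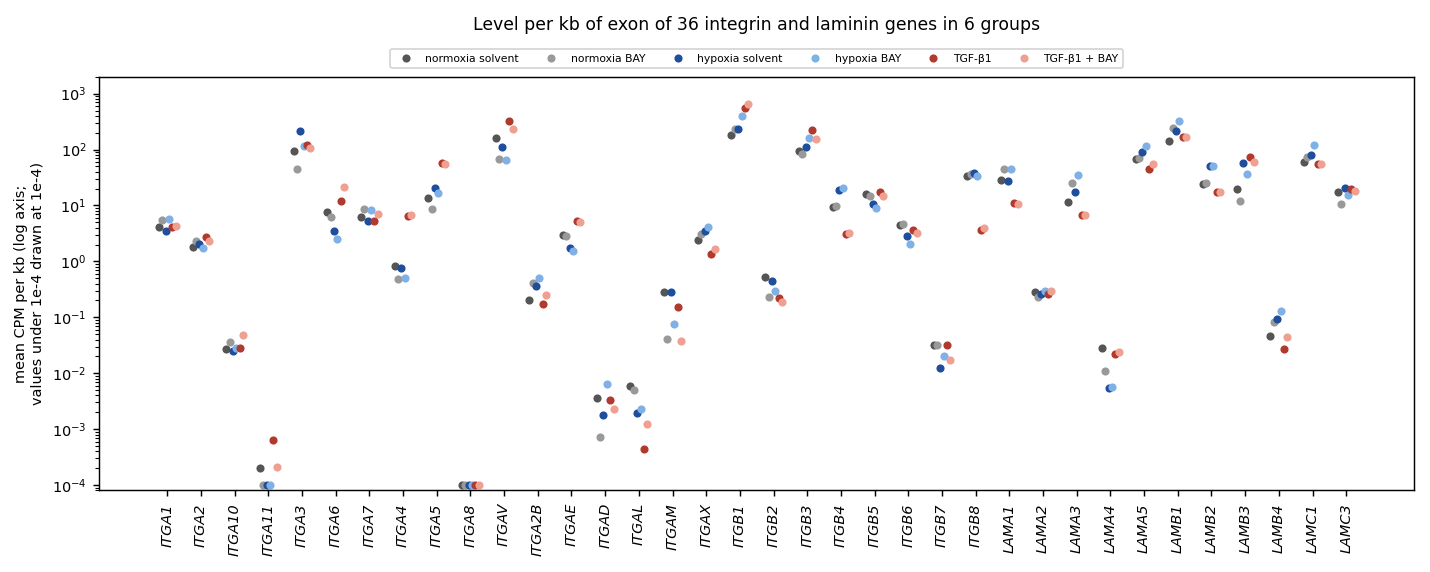
Mean level of the 36 integrin and laminin genes in 6 groups, in CPM per kb of exon on a log axis, with 1 point per group and values under 1e-4 drawn at 1e-4. ITGB1 leads in normoxic solvent at 185 CPM per kb, ITGA8 is at 0 in every group, and ITGB8 is at 3.66 CPM per kb with TGF-β1, against 33.8 in solvent.

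Several members share exons with another gene, and the sources used here do not say whether the counting used strand. ITGA1 overlaps PELO on the same strand, and PELO carried counts equal to 63.9% of those of ITGA1. ITGAE lies opposite HASPIN, whose counts equalled 99.5% of its own, and ITGA7 lies opposite BLOC1S1 (93.0%) and METTL7B. ITGB7 lies opposite the far more abundant ZNF740. ITGB2 lies opposite ITGB2-AS1 (29.8%) and LAMA5 opposite ADRM1 (13.6%). Reads of these pairs may not be separated, so the values of ITGA1, ITGA7, ITGAE, ITGB7, ITGB2 and LAMA5 are less certain than the rest.

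TGF-β1 moved 5 members that have a RefSeq promoter past a log2 fold change of 1.5 in either direction at 5 CPM or more: ITGA4, ITGA5, ITGB1 and LAMB3 rose and ITGB8 fell. Their promoters are printed to show the sequence in front of the genes that respond most, from 250 bases before to 50 bases after the first RefSeq start on GRCh38.p14, 5′ to 3′ on the gene's strand. Capitals mark CAGAC, the SMAD box, or GTCTG, the same box on the other strand. ITGA4 lies at chr2:181457136-181457435 (plus strand), ITGA5 at chr12:54419217-54419516 (minus), ITGB1 at chr10:32958181-32958480 (minus), LAMB3 at chr1:209652376-209652675 (minus) and ITGB8 at chr7:20330650-20330949 (plus).
ITGA4: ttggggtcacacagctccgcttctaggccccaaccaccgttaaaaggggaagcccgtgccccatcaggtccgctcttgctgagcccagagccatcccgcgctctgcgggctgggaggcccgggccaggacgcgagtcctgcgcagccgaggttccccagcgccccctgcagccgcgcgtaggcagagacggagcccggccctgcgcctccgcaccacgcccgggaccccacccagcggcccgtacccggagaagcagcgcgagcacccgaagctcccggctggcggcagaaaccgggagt
ITGA5: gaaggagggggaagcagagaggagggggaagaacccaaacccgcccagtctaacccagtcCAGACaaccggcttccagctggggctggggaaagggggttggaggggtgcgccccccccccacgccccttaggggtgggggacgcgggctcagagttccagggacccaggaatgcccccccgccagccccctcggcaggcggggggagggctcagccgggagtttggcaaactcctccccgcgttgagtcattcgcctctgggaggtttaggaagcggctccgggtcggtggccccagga
ITGB1: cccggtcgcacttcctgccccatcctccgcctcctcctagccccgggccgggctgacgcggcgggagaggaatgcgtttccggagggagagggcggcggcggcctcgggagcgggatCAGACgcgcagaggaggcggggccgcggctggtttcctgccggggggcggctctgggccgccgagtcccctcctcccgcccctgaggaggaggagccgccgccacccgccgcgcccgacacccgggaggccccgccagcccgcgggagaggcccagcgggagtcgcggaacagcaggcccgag
LAMB3: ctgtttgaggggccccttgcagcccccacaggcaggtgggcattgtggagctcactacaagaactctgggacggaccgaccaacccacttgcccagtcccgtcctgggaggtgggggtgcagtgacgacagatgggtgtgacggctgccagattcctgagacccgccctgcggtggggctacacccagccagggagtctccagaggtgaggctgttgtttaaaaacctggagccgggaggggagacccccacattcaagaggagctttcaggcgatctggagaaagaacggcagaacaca
ITGB8: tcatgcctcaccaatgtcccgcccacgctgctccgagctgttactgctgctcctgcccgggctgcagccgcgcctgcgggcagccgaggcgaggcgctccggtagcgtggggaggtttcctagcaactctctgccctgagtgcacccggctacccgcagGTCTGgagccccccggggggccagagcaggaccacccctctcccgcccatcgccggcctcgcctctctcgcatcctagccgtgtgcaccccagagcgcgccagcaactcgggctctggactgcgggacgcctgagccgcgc

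The box occurred once each in the ITGA5, ITGB1 and ITGB8 windows and in neither the ITGA4 nor the LAMB3 window. Counted from the start, its first base lies at -190 in ITGA5, -133 in ITGB1 and -91 in ITGB8, where it is on the other strand. Over 35116 RefSeq promoters of the same length, 45.3% hold the box, and 14 of the 26 members with a promoter do (53.8%). Of the other motifs searched on both strands, ITGA5 holds AP-1 (TGANTCA, in 7.71% of all promoters) at -6 and TEAD (GGAATG, 14.0%) at -82. ITGB1 holds TEAD at -182 and the core of the CRE (TGACG, 24.6%) at -197, and LAMB3 holds the same core at -128 and -112. The hypoxia response core ACGTG (21.4% of all promoters) was in none of the 5. These letters overlap no other motif searched within these windows, and a match is a description of the sequence only.

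With TGF-β1, the fibronectin-binding α subunits, β1 and the hemidesmosomal β3 laminin chain rose, while ITGB8, ITGB4, LAMA1, LAMA3 and LAMA5 fell. Of the 32 members tested, 12 rose and 12 fell, against 29.5% and 32.5% of all genes tested called higher and lower. Their median log2 fold change was -0.11, beside -0.04 over all genes. In bulk RNA, fewer cells of a type and less RNA per cell cannot be told apart. Adjusted p-values come from edgeR's quasi-likelihood test with Benjamini-Hochberg adjustment over every gene tested, and the words rose and fell are kept for genes with an adjusted p below 0.05, said to be called.

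ITGA4, the α subunit of a receptor for fibronectin and VCAM1, was barely expressed without TGF-β1, at 4.04, 4.26, 3.36, 3.36 and 4.18 CPM in solvent replicates 1 to 5. With TGF-β1 it stood at 36.9, 38.2, 24.4, 25.2 and 25.00 CPM. The groups lie far apart, the 2 set A libraries being the highest with TGF-β1 (log2 fold change 2.91 ± 0.14 (SE), adjusted p = 7.05e-12). ITGA5, the α subunit of the classical fibronectin receptor, had 66.5, 62.3, 59.6, 56.7 and 63.3 CPM in solvent and 275, 276, 241, 244 and 246 CPM with TGF-β1. Every TGF-β1 library was above 3 times every solvent library (log2 fold change 2.00 ± 0.043 (SE), adjusted p = 2.11e-17). ITGAV rose with them, from a mean of 1138 ± 101 to 2303 ± 127 CPM (SD, n = 5 each; log2 fold change 0.97), whereas ITGA2B, an RGD-binding subunit of platelets, was under 1 CPM in both groups and was not called.

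Among the β subunits, ITGB1 had 758, 735, 695, 694 and 754 CPM in solvent and 2215, 2228, 2159.5, 2173 and 2236 CPM with TGF-β1. These 2 groups were tight and well separated (log2 fold change 1.55 ± 0.033 (SE), adjusted p = 2.01e-17). ITGB8, the αV partner that presents latent TGF-β, moved furthest of all members at 5 CPM or more. It stood at 296, 301, 335, 345 and 281 CPM in solvent and at 31.9, 32.4, 35.97, 33.9 and 34.6 CPM with TGF-β1. Every TGF-β1 library was under 40 CPM, and the fall was 9.56-fold (log2 fold change -3.26 ± 0.076 (SE), adjusted p = 1.21e-16). ITGB4, the α6 partner in hemidesmosomes, went from 61.8, 60.9, 51.6, 53.7 and 62.03 CPM to 24.6, 24.2, 15.6, 15.99 and 16.8 CPM, without overlap (log2 fold change -1.63 ± 0.13 (SE), adjusted p = 8.20e-09). ITGB3, the vitronectin receptor's β subunit, rose by 1.23 on the log2 scale to 994 ± 28.9 CPM. ITGB6, the epithelial αV partner that also frees latent TGF-β, fell by 0.31 and ITGB2, the leukocyte β subunit at 1.85 CPM in solvent, by 1.33 on the log2 scale. ITGB5, an αV partner for vitronectin, and ITGB7, a lymphocyte subunit, were not called.

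The laminin-binding α subunits split: ITGA3 rose by 0.33 and ITGA6 by 0.62 on the log2 scale, and ITGA7 fell by 0.31. ITGA2, a collagen receptor subunit, rose by 0.57, while ITGA1 and ITGA10 of the same collagen-binding group were not called. For ITGA2 and ITGA6 the 2 sets of libraries differ: ITGA6 had 94.8, 94.2, 51.4, 53.2 and 56.1 CPM with TGF-β1 and ITGA2 had 30.7, 28.8, 16.4, 17.01 and 16.6 CPM, with replicates 1 and 2 (set A) highest. The ITGA2 value was 0.97 in set A alone and 0.33 in set B alone, the ITGA6 value 0.95 in set A, the ITGA3 value 0.51 in set A, and the ITGA7 value -0.13 in set A, each still called. Of the leukocyte α subunits, ITGAX had 13.5, 13.4, 15.1, 15.2 and 14.2 CPM in solvent and 8.63, 9.21, 7.17, 7.44 and 7.05 CPM with TGF-β1, so every treated library was lower (log2 fold change -0.90 ± 0.069 (SE), adjusted p = 1.56e-09). ITGAE, which with β7 binds E-cadherin, rose by 0.75, and ITGAM, at 1.32 CPM in solvent, fell by 0.90 on the log2 scale.

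All 3 laminin α chains above 5 CPM fell with TGF-β1. LAMA1, an α chain of embryonic and tubular basement membranes, had 301, 308, 254, 258 and 298 CPM in solvent and 125, 122, 101, 103 and 102 CPM with TGF-β1 (log2 fold change -1.41 ± 0.088 (SE), adjusted p = 1.73e-10). LAMA3 fell by 0.83 to 74.6 ± 2.51 CPM and LAMA5 by 0.67 on the log2 scale to 516 ± 73.98 CPM (SD, n = 5 each). LAMB3, the β chain that assembles with LAMA3, moved the other way: it had 93.7, 93.2, 80.6, 81.3 and 98.8 CPM in solvent and 360.3, 363, 297, 307 and 295 CPM with TGF-β1 (log2 fold change 1.81 ± 0.076 (SE), adjusted p = 4.68e-13). The lowest treated library was well above the highest solvent library. LAMB2, the β chain of mature glomerular and vascular basement membranes, fell by 0.55, LAMB1 rose by 0.16 and LAMC3 by 0.11 on the log2 scale (LAMC3 0.18 in set B alone). LAMB4, under 1 CPM in every group, fell by 0.79, a call lost in set A alone (adjusted p = 0.0848), in set B alone (0.176) and without solvent replicate 1. LAMC1, LAMA2 and LAMA4 were not called.

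**Figure D2:**
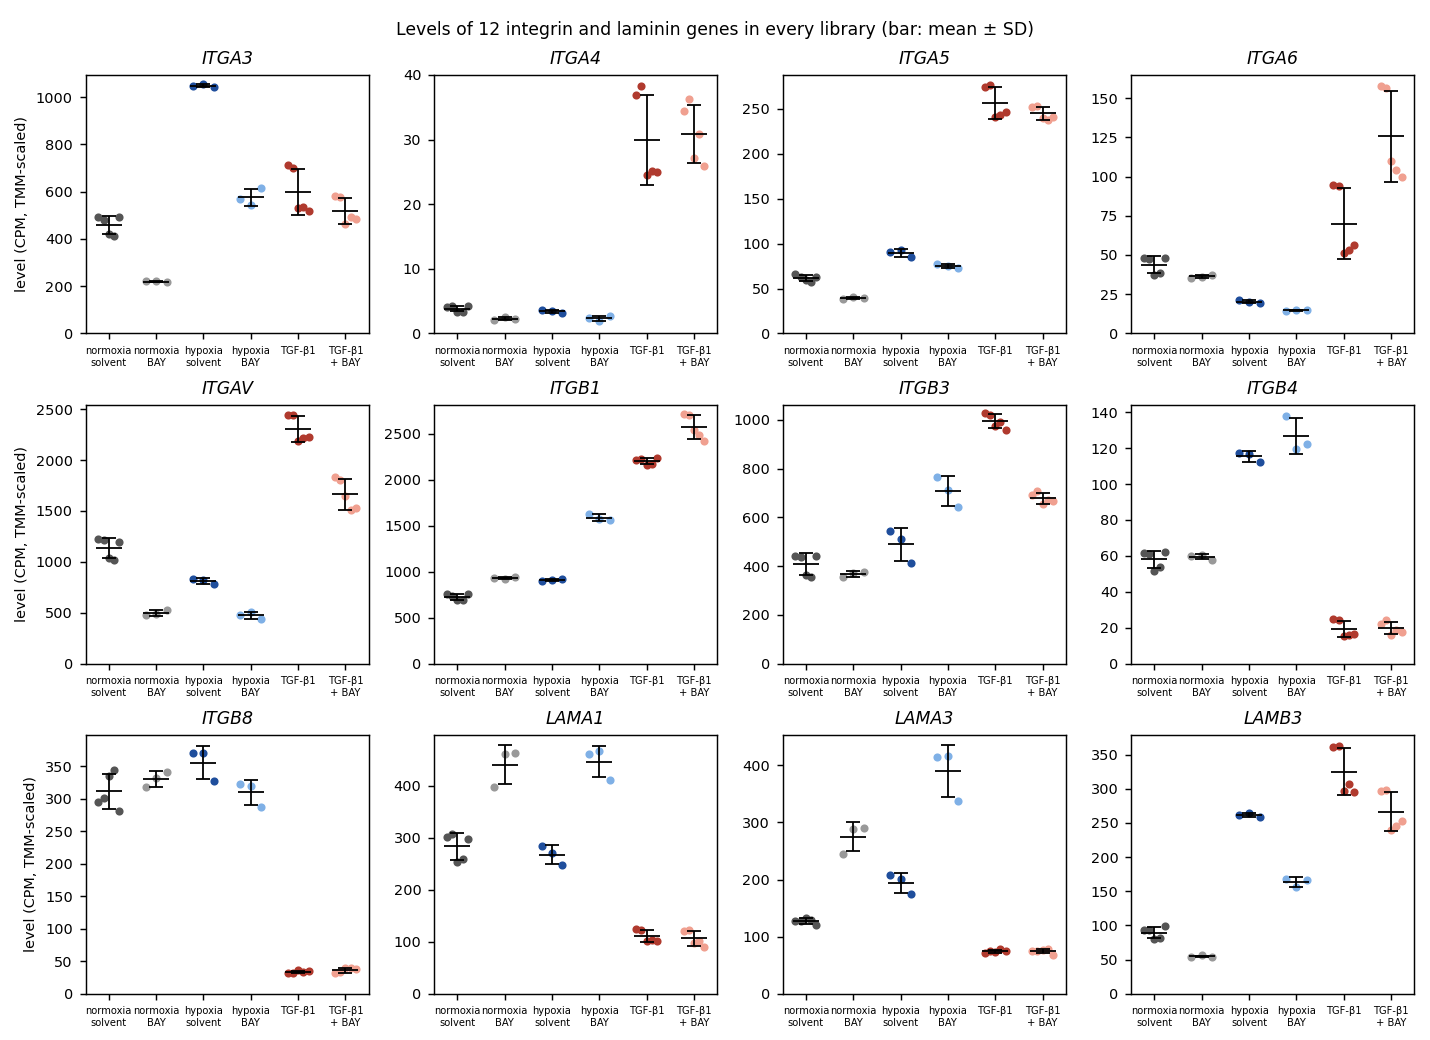
Levels of 12 integrin and laminin genes (CPM, TMM-scaled, linear axes from 0) in each of the 24 libraries, by group, with 1 point per library and bars for the mean and SD. ITGB8 lies under 40 CPM in all 10 libraries with TGF-β1, and ITGA3 and LAMB3 rise in hypoxia and are lower with BAY in both oxygen conditions.

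In hypoxia, the laminin β and γ chains rose, and ITGA3 and ITGB4 rose with them. ITGA6, the αV partners ITGB5 and ITGB6, and ITGAV fell. Of the 32 members, 16 rose and 8 fell, where 29.2% of all genes tested were called higher and 31.6% lower. Of the 11 laminins 8 rose and 1 fell, with a median log2 fold change of 0.39 beside -0.02 over all genes, and of the 21 integrins 8 rose and 7 fell. All 6 β and γ laminin chains rose, with a median of 0.80. Of the 5 α chains 2 rose and 1 fell, with a median of -0.10. This comparison, that of TGF-β1 and that of BAY in normoxia use the same normoxic solvent libraries. So do the tests of whether hypoxia or TGF-β1 altered the BAY effect.

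ITGA3, the α subunit of the main tubular laminin receptor, had 1047, 1054 and 1041 CPM in the 3 hypoxic solvent libraries, against 492, 481, 420.1, 412 and 490.5 CPM in the 5 normoxic ones (log2 fold change 1.17 ± 0.053 (SE), adjusted p = 3.37e-11). Each hypoxic library was above 2 times each normoxic one. ITGA6 went the other way, with 21.3, 19.8 and 19.5 CPM in hypoxia and 48.3, 47.7, 37.2, 38.2 and 47.9 CPM in normoxia (log2 fold change -1.13 ± 0.077 (SE), adjusted p = 4.25e-09). Its β4 partner rose: ITGB4 had 117, 117 and 112 CPM in hypoxia, about 2-fold its level in normoxia, where the 5 libraries lie between 51.6 and 62.0 CPM (log2 fold change 0.98 ± 0.055 (SE), adjusted p = 4.04e-10). ITGA7, the laminin receptor subunit known from muscle, fell by 0.26 on the log2 scale (by 0.17 against set A alone).

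Of the RGD and fibronectin receptors, ITGA5 rose by 0.52 and ITGAV fell by 0.50 on the log2 scale, while ITGA4 was not called. ITGB6 had 13.5, 12.8 and 13.5 CPM in hypoxia and 19.4, 20.6, 21.6, 22.8 and 19.4 CPM in normoxia (log2 fold change -0.67 ± 0.090 (SE), adjusted p = 9.79e-06). ITGB5 had 47.6, 48.8 and 42.3 CPM in hypoxia and 73.4, 72.1, 65.3, 63.5 and 72.9 CPM in normoxia (log2 fold change -0.60 ± 0.057 (SE), adjusted p = 1.68e-07). Neither gene's groups overlapped. ITGB1 rose by 0.31 and ITGB3 by 0.25 on the log2 scale, and ITGB8, unlike in TGF-β1, was not called (356 ± 25.1 CPM in hypoxia, SD, n = 3, and 312 ± 27.3 CPM in normoxia, SD, n = 5). ITGAE had 6.38, 6.43 and 7.34 CPM in hypoxia and 11.6, 11.3, 11.8, 11.1 and 11.97 CPM in normoxia, again without overlap (log2 fold change -0.80 ± 0.070 (SE), adjusted p = 6.25e-08). ITGAX rose by 0.50 and ITGA2B, near 1 CPM, by 0.86 on the log2 scale.

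LAMB3 moved most among laminins of 5 CPM or more, with 261, 265 and 258 CPM in hypoxia and 93.7, 93.2, 80.6, 81.3 and 98.8 CPM in normoxia (log2 fold change 1.53 ± 0.051 (SE), adjusted p = 1.30e-12). LAMB2 had 293, 294 and 299 CPM in hypoxia and 141, 138, 144, 143 and 138 CPM in normoxia (log2 fold change 1.05 ± 0.036 (SE), adjusted p = 2.04e-12). For both genes each hypoxic library was above 2 times each normoxic one. The other chains rose by less: LAMA3 by 0.59, LAMB1 by 0.59, LAMC1 by 0.39, LAMA5 by 0.36 and LAMC3 by 0.23 on the log2 scale. LAMA4, an endothelial α chain, fell by 2.32 from 0.219 ± 0.0362 CPM, and LAMB4 rose by 1.01, both under 1 CPM in every library. LAMA1 and LAMA2 were not called.

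Small changes in hypoxia depended on the libraries used. The calls of ITGA1 (-0.27), ITGA2 (0.20) and ITGB3 (0.25) were lost against set A alone, where their log2 fold changes were -0.16, 0.14 and 0.15. Leaving out hypoxic solvent replicate 1 also lost all 3 calls, replicate 2 those of ITGA1 and ITGB3, and normoxic solvent replicate 3 or 4 that of ITGB3. ITGA2 was also not called with all 24 libraries in 1 fit (adjusted p = 0.383), ITGA1 without the count filter (0.0673) and ITGB3 without it (0.0602) or with replicates 1 to 3 alone (0.0680). Against set B alone, ITGA2 was at 0.34, ITGB3 at 0.44 and LAMC1 at 0.59.

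**Figure D3:**
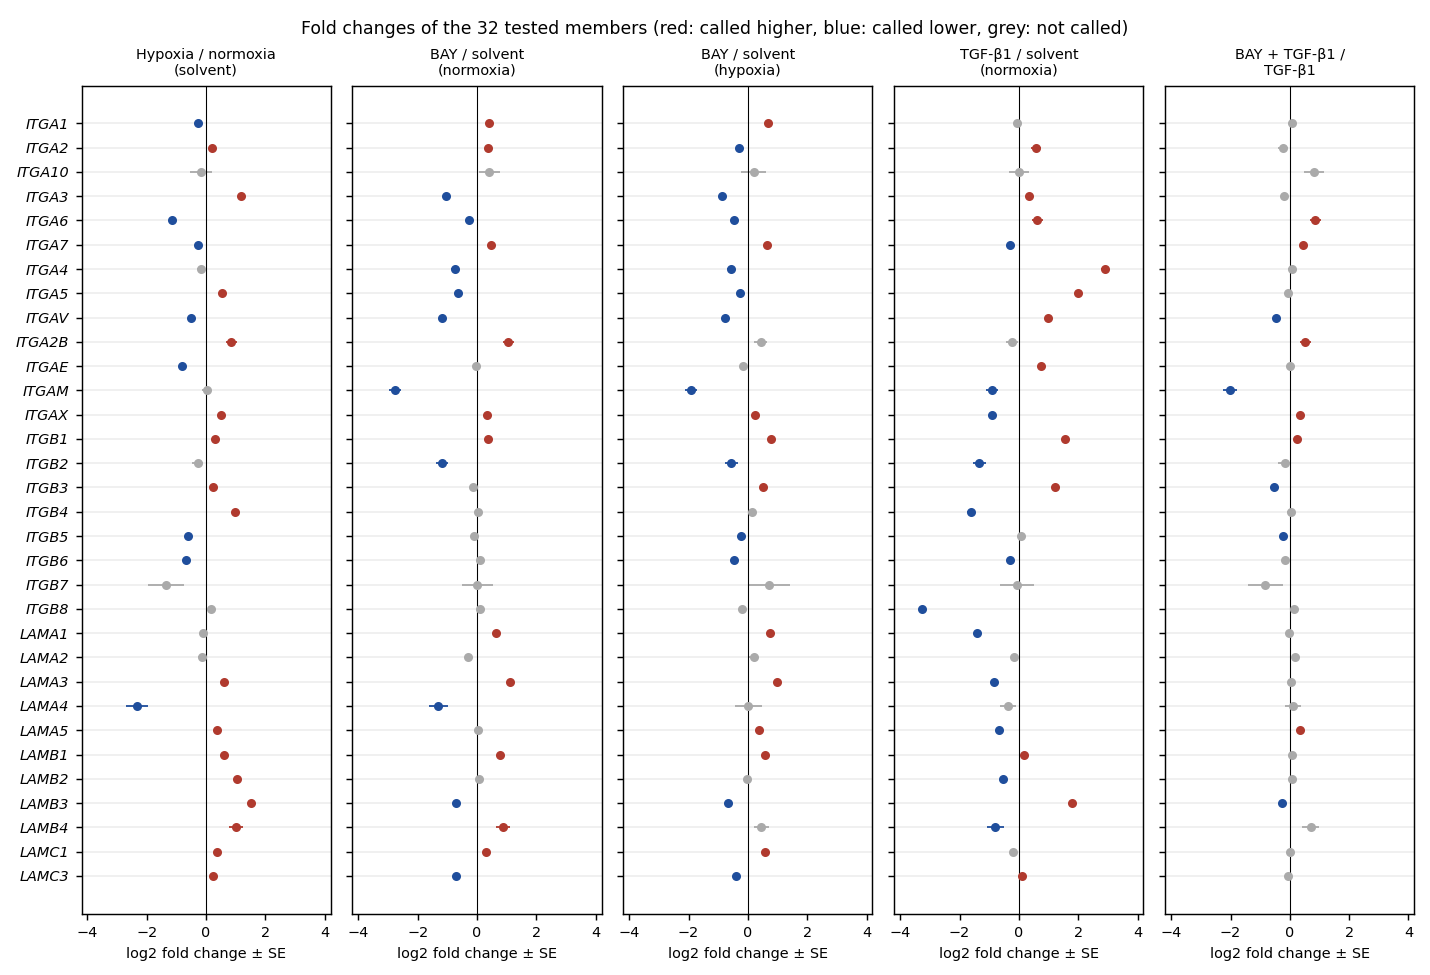
Log2 fold changes with their SE of the 32 tested members (rows) in 5 comparisons (panels), red where called higher, blue where called lower and grey where not called. ITGB8 reaches -3.26 and ITGA4 2.91 with TGF-β1, all 6 β and γ laminin chains are to the right of 0 in hypoxia, and ITGAV is to the left of 0 in all 3 BAY panels.

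BAY in normoxia lowered ITGAV and ITGA3, the 2 most abundant α subunits, and raised 3 laminin chains, LAMA3, LAMB1 and LAMA1. In all, 11 members rose and 10 fell (background 20.6% higher and 23.3% lower), with a median log2 fold change of 0.04 beside 0.00 over all genes. ITGAV had 475, 484 and 530.0 CPM in the 3 BAY libraries and 1229, 1214, 1037, 1021 and 1190.4 CPM in the 5 solvent libraries (log2 fold change -1.19 ± 0.066 (SE), adjusted p = 1.44e-09). ITGA3 had 219.8, 219.7 and 216 CPM with BAY, below every solvent library of 492, 481, 420.1, 412 and 490.5 CPM (log2 fold change -1.06 ± 0.056 (SE), adjusted p = 7.97e-10). In neither case did the groups overlap. ITGA7 rose, at 40.3, 39.6 and 38.96 CPM with BAY and 27.3, 26.2, 30.1, 30.8 and 27.98 CPM with solvent (log2 fold change 0.48 ± 0.057 (SE), adjusted p = 5.66e-06).

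The fibronectin receptor α subunits fell with ITGAV: ITGA5 by 0.64 and ITGA4, at 2.25 ± 0.244 CPM with BAY (SD, n = 3), by 0.76 on the log2 scale. The collagen-binding ITGA1 rose by 0.40 (0.25 with set B alone) and ITGA2 by 0.37, and their partner ITGB1 by 0.37. No other β subunit was called but ITGB2, which fell by 1.18 to 0.813 ± 0.0306 CPM. ITGB3, ITGB4, ITGB5, ITGB6 and ITGB8 were not called, and ITGB8 stood at 331 ± 12.1 CPM (SD, n = 3). The leukocyte subunit ITGAM fell by 2.77 from 1.32 ± 0.103 to 0.192 ± 0.0427 CPM, while ITGAX, its neighbour on chromosome 16, rose by 0.34 on the log2 scale and the next gene, ITGAD, was near 0. ITGA2B rose by 1.05 to 1.38 ± 0.222 CPM. The platelet markers PF4 and GP9 were at 0 in every library, and the white cell markers PTPRC, CD3E and LYZ were under 0.1 CPM in every library. CD74, CD68 and CSF1R, also known from white cells, were expressed, with CD74 at 258 ± 12.5 CPM with solvent (SD, n = 5) and 143 ± 3.07 CPM with BAY in normoxia (SD, n = 3). Their part in the ITGAM, ITGAX and ITGB2 values was not tested.

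LAMA3 had 246, 289 and 289.7 CPM with BAY and 127, 128, 133, 129 and 121 CPM with solvent (log2 fold change 1.11 ± 0.077 (SE), adjusted p = 3.76e-08). LAMB1, the β chain of the common tubular laminin, had 1478, 1568 and 1514 CPM with BAY and 934, 938, 818, 828 and 939 CPM with solvent (log2 fold change 0.78 ± 0.051 (SE), adjusted p = 9.54e-09). LAMA1 had 397, 462 and 463 CPM with BAY and 301, 308, 254, 258 and 298 CPM with solvent (log2 fold change 0.64 ± 0.071 (SE), adjusted p = 3.07e-06). In each case the lowest BAY library was above the highest solvent library. LAMB3, however, fell to 54.4, 56.05 and 54.2 CPM from 93.7, 93.2, 80.6, 81.3 and 98.8 CPM (log2 fold change -0.70 ± 0.053 (SE), adjusted p = 4.86e-08). LAMC3, a γ chain outside the classical epithelial trimers, fell to 66.6, 64.9 and 62.3 CPM from 109, 111, 101, 101 and 110.4 CPM (log2 fold change -0.71 ± 0.037 (SE), adjusted p = 6.14e-10). LAMC1 rose by 0.29 and, under 1 CPM, LAMB4 rose by 0.87 and LAMA4 fell by 1.31 on the log2 scale. LAMA5, LAMB2 and LAMA2 were not called. The ITGA6 fall of 0.26 was 0.40 with set A alone and 0.06, not called, with set B alone, and its call was also lost without BAY replicate 1. LAMC1 was at 0.16 with set A and 0.46 with set B, and its call was lost without BAY replicate 2 or 3, and the LAMA4 call was lost with set B alone. With all 24 libraries in 1 fit, neither ITGA2 (adjusted p = 0.143) nor ITGA6 (adjusted p = 0.276) was called.

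In hypoxia, BAY again lowered ITGAV, ITGA3 and LAMB3 and again raised LAMA3, LAMA1, LAMB1 and ITGB1. In all, 10 members rose and 12 fell (background 16.5% higher and 21.4% lower), with a median of 0.07 beside -0.02 over all genes. The libraries of this comparison are separate from those in normoxia. Of 21 members called with BAY in normoxia and 22 in hypoxia, 18 were called in both (85.7% and 81.8% of the lists), 17 of them in the same direction. Over all genes tested in both, the calls in both were 58.0% and 67.1% of the lists, and 93.5% of them had the same direction. ITGA2 was the member called in both in opposite directions.

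ITGAV had 481, 506 and 437 CPM in hypoxia with BAY and 829.7, 822 and 780.3 CPM in hypoxia with solvent (log2 fold change -0.78 ± 0.071 (SE), adjusted p = 4.59e-07). ITGA3, raised by hypoxia, had 571, 544 and 615 CPM with BAY and 1047, 1054 and 1041 CPM with solvent (log2 fold change -0.87 ± 0.061 (SE), adjusted p = 2.46e-08). ITGA6 had 14.4, 14.6 and 14.7 CPM with BAY and 21.3, 19.8 and 19.5 CPM with solvent (log2 fold change -0.48 ± 0.086 (SE), adjusted p = 3.70e-04). All 3 α subunits were thus lower with BAY without overlap. ITGB1 had 1628, 1574 and 1559.5 CPM with BAY, against 902, 905 and 923 CPM with solvent (log2 fold change 0.79 ± 0.038 (SE), adjusted p = 4.50e-10). ITGA1 had 58.1, 65.6 and 59.7 CPM with BAY and 36.5, 36.2 and 40.8 CPM with solvent (log2 fold change 0.68 ± 0.10 (SE), adjusted p = 1.26e-04). ITGB1 and ITGA1 both stood higher in every BAY library, while ITGA2, which also binds collagen, fell. Also called were rises of ITGA7 (0.63), ITGB3 (0.52) and ITGAX (0.24), and falls of ITGA4 (-0.56), ITGA5 (-0.26), ITGA2 (-0.29), ITGB5 (-0.24), ITGB6 (-0.47), ITGB2 (-0.56) and ITGAM (-1.93). The ITGB2 groups overlapped and its call was lost without any 1 of 4 libraries (solvent or BAY replicate 1, solvent replicate 2, BAY replicate 3, where it was -0.36), with all 24 libraries in 1 fit (adjusted p = 0.129), with size factors (0.0558), without the count filter (0.0711) and with replicates 1 to 3 alone (0.0597). The ITGAX call was lost without solvent replicate 2 or BAY replicate 3, where it was 0.16. With all 24 libraries in 1 fit, ITGA2 (adjusted p = 0.314) and ITGA6 (adjusted p = 0.119) were not called. Same-numbered libraries of the 2 hypoxic groups deviated together, and with the replicate number as a block within these groups ITGB8 was also lower (log2 fold change -0.21 ± 0.076 (SE), adjusted p = 0.0489), which made 13 members lower.

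Among laminins, LAMA3 had 415, 417 and 337 CPM with BAY in hypoxia and 209, 200.3 and 175 CPM with solvent (log2 fold change 0.99 ± 0.089 (SE), adjusted p = 7.81e-07). LAMA1 had 461, 467 and 411 CPM with BAY and 284, 272 and 247 CPM with solvent (log2 fold change 0.73 ± 0.080 (SE), adjusted p = 4.44e-06). Of the 6 groups, LAMA3 had its highest mean in this one, and LAMA1 had 446 ± 30.4 CPM here and 440.5 ± 37.8 CPM with BAY in normoxia (SD, n = 3 each). LAMB3 had 168, 156 and 167 CPM with BAY and 261, 265 and 258 CPM with solvent (log2 fold change -0.69 ± 0.058 (SE), adjusted p = 2.10e-07). LAMC1 rose by 0.59, LAMB1 by 0.56 and LAMA5 by 0.36 on the log2 scale, so all 3 chains of the common tubular laminin rose. LAMC3 fell by 0.41, and LAMB2, LAMA2, LAMA4 and LAMB4 were not called.

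The BAY effect itself differed between hypoxia and normoxia for 9 members, 7 with a higher and 2 with a lower log2 value in hypoxia (background 8.83% and 7.92%). For ITGB1 the rise was larger in hypoxia, by 0.42 ± 0.051 (SE) on the log2 scale (adjusted p = 4.49e-05). ITGB3 had 766, 711 and 643 CPM with BAY in hypoxia and 544, 512 and 412 CPM without, but 353, 372 and 375 CPM with BAY in normoxia and 443, 439, 365, 354 and 440.0 CPM without. Its rise was called in hypoxia only, and the difference was 0.67 ± 0.14 (adjusted p = 0.00495). ITGA2 had 17.3, 18.1 and 19.05 CPM with BAY in normoxia and 14.1, 15.3, 13.4, 12.7 and 15.4 CPM without, and in hypoxia 13.3, 12.7 and 14.5 CPM with BAY and 17.3, 16.6 and 15.5 CPM without. It rose in one and fell in the other condition, a difference of -0.66 ± 0.098 (adjusted p = 3.09e-04) that was not called when all 24 libraries shared 1 fit (adjusted p = 0.138). ITGB6 had 9.40, 11.3 and 8.22 CPM with BAY in hypoxia, below 13.5, 12.8 and 13.5 CPM without, and 20.8, 22.7 and 23.5 CPM with BAY in normoxia (difference -0.58 ± 0.13, adjusted p = 0.00773). With the replicate block within the hypoxic groups, LAMB1 was another member with a lower value (-0.22 ± 0.070 (SE), adjusted p = 0.0454).

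Added to TGF-β1, BAY raised ITGA6 and ITGB1 and lowered the vitronectin receptor pair ITGAV and ITGB3. In all, 6 members rose and 5 fell (background 13.9% higher and 15.6% lower), with a median of 0.03 beside 0.01 over all genes. Same-numbered libraries of the 2 TGF-β1 groups deviated together, though the labels do not say that the numbers pair them. With the replicate number as a block within these groups, 7 members rose and 8 fell: the log2 fold change was -0.18 ± 0.052 (SE), adjusted p = 0.0145 for ITGA3, -0.21 ± 0.063 (SE), adjusted p = 0.0195 for ITGA2 and -0.18 ± 0.059 (SE), adjusted p = 0.0271 for ITGB6, and ITGA10, under 1 CPM, rose (0.87 ± 0.31 (SE), adjusted p = 0.0427). Without the block these 4 were not called, and no member lost its call with it. ITGA6 rose beyond its TGF-β1 level, to 158, 157, 109.6, 104 and 99.97 CPM from 94.8, 94.2, 51.4, 53.2 and 56.1 CPM (log2 fold change 0.86 ± 0.19 (SE), adjusted p = 0.00219). The set A libraries, replicates 1 and 2, are highest in both groups, and within each set the BAY libraries lie above those without. ITGA7 had 28.96, 30.4, 30.5, 34.4 and 36.1 CPM with BAY and 25.2, 25.2, 22.7, 22.8 and 22.8 CPM without (log2 fold change 0.45 ± 0.061 (SE), adjusted p = 1.59e-05), a value that was 0.23 in set A alone. LAMA5 had 749, 761, 548, 579.7 and 564 CPM with BAY and 601, 592, 459, 467 and 459.5 CPM without (log2 fold change 0.33 ± 0.097 (SE), adjusted p = 0.0158). ITGAX had 9.49, 9.60, 9.11, 10.6 and 10.2 CPM with BAY and 8.63, 9.21, 7.17, 7.44 and 7.05 CPM without (log2 fold change 0.33 ± 0.069 (SE), adjusted p = 0.00132). For LAMA5 and ITGAX the groups overlapped, and with replicates 1 to 3 alone neither was called. ITGAX was also not called in set A alone (0.10). ITGB1 rose by 0.24 on the log2 scale, and ITGA2B, near 1 CPM, rose by 0.52, a call lost without any 1 of 7 libraries (TGF-β1 replicates 1 to 4 and TGF-β1 with BAY replicates 1, 4 and 5), without the count filter (adjusted p = 0.0847) and with replicates 1 to 3 (0.176), set A (0.164) or set B (0.111) alone.

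ITGB3, raised by TGF-β1, had 692, 709, 654, 672 and 665 CPM with BAY and 1028, 1018, 973, 990.1 and 960.5 CPM without (log2 fold change -0.53 ± 0.055 (SE), adjusted p = 6.37e-07). Its αV partner ITGAV had 1831, 1809, 1647, 1506 and 1526 CPM with BAY and 2444, 2439.7, 2191, 2215 and 2227 CPM without (log2 fold change -0.45 ± 0.062 (SE), adjusted p = 1.93e-05). Both fell without overlap but stayed above the solvent controls. ITGB5 had 66.7, 66.4, 61.6, 61.2 and 61.1 CPM with BAY and 77.5, 80.1, 70.5, 73.8 and 72.5 CPM without (log2 fold change -0.22 ± 0.042 (SE), adjusted p = 4.74e-04). LAMB3 had 296, 298, 239, 246 and 253 CPM with BAY and 360.3, 363, 297, 307 and 295 CPM without, with overlap between the groups (log2 fold change -0.27 ± 0.073 (SE), adjusted p = 0.00936). Its call was lost with replicates 1 to 3 alone. ITGAM fell by 2.02 on the log2 scale to 0.177 ± 0.0664 CPM. Of the genes that moved far with TGF-β1, ITGA4, ITGA5, ITGB8, ITGB4 and LAMA1 were not called when BAY was added: ITGA4 had 30.9 ± 4.48, ITGA5 245 ± 7.41, ITGB8 36.3 ± 3.55, ITGB4 19.8 ± 3.35 and LAMA1 107 ± 14.5 CPM with both agents (SD, n = 5). Of 21 members called with BAY in normoxia without TGF-β1 and 11 with it, 8 were called in both (38.1% and 72.7% of the lists), 7 in the same direction. Over all genes tested in both these shares were 45.9% and 68.1%, with 88.6% in the same direction.

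Whether TGF-β1 altered the BAY effect was tested directly. The effect was higher with TGF-β1 for 10 members and lower for 5 (background 13.7% and 7.08%). ITGA6 fell with BAY alone and rose with BAY on TGF-β1, a difference of 1.14 ± 0.29 on the log2 scale (SE; adjusted p = 0.00960). The ITGA6 change with BAY alone was -0.06 with set B alone. It was not called there or with all 24 libraries in 1 fit. LAMA3, which BAY raised in normoxia and in hypoxia, had 74.2, 75.4, 76.9, 79.3 and 68.8 CPM with both agents and 71.7, 74.2, 73.8, 78.6 and 74.4 CPM with TGF-β1 alone, so the difference was -1.07 ± 0.072 (adjusted p = 8.75e-09). ITGA3 had 581, 576, 465, 492 and 483 CPM with both agents and 712, 701, 529.6, 533 and 519 CPM with TGF-β1 alone, a change that was called with the replicate block within these groups but not without it, against its fall with BAY alone (difference 0.89 ± 0.14, adjusted p = 1.51e-04). ITGA4 had 34.5, 36.2, 27.1, 30.8 and 25.9 CPM with both agents, beside its fall with BAY alone (difference 0.84 ± 0.22, adjusted p = 0.00924). Of the laminin chains that BAY raised in normoxia, LAMA1 and LAMB1 likewise had called differences, of -0.66 and -0.70. With the replicate block within the TGF-β1 groups the difference was also called for ITGA2 (-0.56 ± 0.096 (SE), adjusted p = 4.89e-04), ITGB6 (-0.28 ± 0.089 (SE), adjusted p = 0.0329) and LAMA5 (0.31 ± 0.066 (SE), adjusted p = 0.00269), and it was lost for ITGA1 (-0.30 ± 0.11 (SE), adjusted p = 0.0628).

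**Figure D4:**
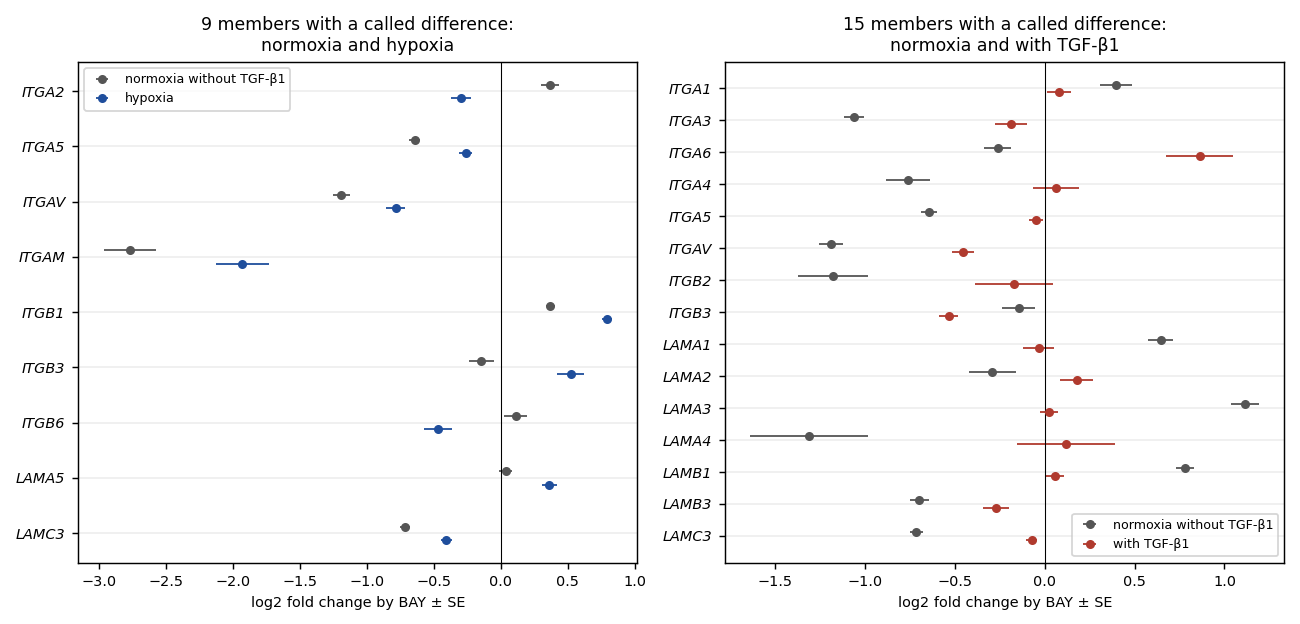
Log2 fold change by BAY with its SE for the members whose BAY effect differed in a direct test, between normoxia and hypoxia (left, 9 members) and between normoxia without and with TGF-β1 (right, 15 members). Grey points are normoxia without TGF-β1, blue points hypoxia and red points TGF-β1. LAMA3 is at 1.11 without TGF-β1 and near 0 with it.

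The make-up of the subunit families differed between groups. Shares below are of summed CPM per kb, with the SD over libraries, and are given as a description. Among the 5 β partners of αV, ITGB8 held 10.2% ± 1.39 in normoxic solvent (n = 5), 9.76% ± 0.319 in hypoxia (n = 3) and 0.452% ± 0.0286 with TGF-β1 (n = 5). ITGB1 held 55.7% ± 0.514, 58.7% ± 3.20 and 69.1% ± 0.606 in the same groups and 78.8% ± 0.542 with TGF-β1 and BAY, where ITGB3 was at 18.6% ± 0.451. Among the 8 α partners of β1, ITGAV led in normoxic solvent with 55.1% ± 0.527 and ITGA3 in hypoxia with 59.2% ± 0.649. The RGD-binding subunit thus had the largest share in normoxia and a laminin-binding one in hypoxia. ITGA5 went from 4.85% ± 0.173 to 10.9% ± 0.245 with TGF-β1.

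LAMA5 stayed the first laminin α chain in every group, from 50.3% ± 1.82 with BAY in normoxia (n = 3) to 75.6% ± 1.80 with TGF-β1 and BAY (n = 5). LAMA1 held 26.2% ± 0.691 in normoxic solvent, 31.8% ± 1.10 with BAY and 17.7% ± 0.248 with TGF-β1. Of the β chains LAMB3 varied most: it held 10.6% ± 0.366 in normoxic solvent, 4.34% ± 0.0623 with BAY in normoxia, 17.8% ± 0.331 in hypoxia and 28.2% ± 0.810 with TGF-β1. LAMB1 held the largest share in all 6 groups.

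**Figure D5:**
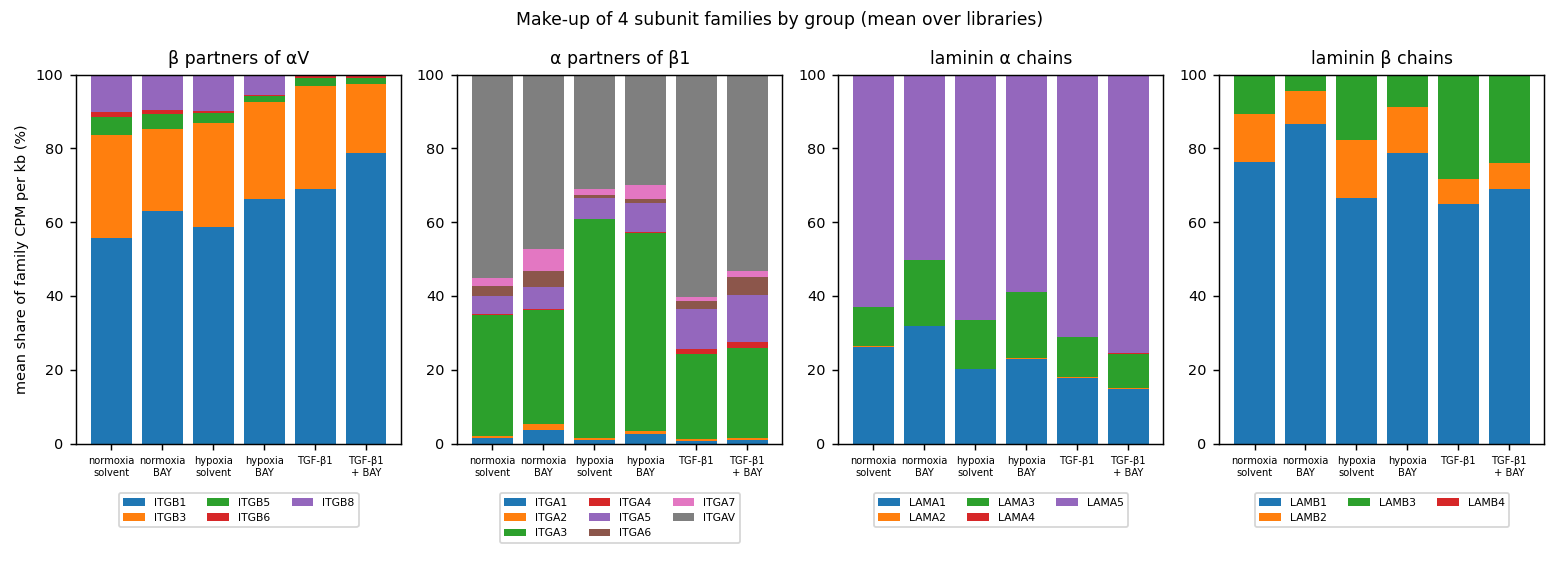
Mean share (%) of each subunit in the summed CPM per kb of 4 families, stacked by group. With TGF-β1 the ITGB8 segment shrinks to 0.452%, and in hypoxia ITGA3 makes up 59.2% of the α partners of β1.

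Genes that work with these receptors were followed through 4 lists. Of 28 tested adhesion partners, which link integrin tails to actin, 19 rose and 4 fell with TGF-β1 (background 29.5% higher and 32.5% lower), while 2 rose and 18 fell with BAY in normoxia (20.6% and 23.3%). Without normoxic BAY replicate 2, the list had 1 rise in place of 2. FERMT1, the epithelial kindlin, rose from 22.04 ± 1.30 to 59.4 ± 11.99 CPM with TGF-β1 and to 111 ± 23.7 CPM with BAY added (SD, n = 5), and PXN, the adaptor paxillin, rose by 1.11 on the log2 scale with TGF-β1. In normoxia BAY lowered FLNA, the actin crosslinker filamin A, by 1.02 and FERMT1 by 0.94 on the log2 scale. In hypoxia 10 partners rose and 10 fell (background 29.2% and 31.6%), among them the PINCH adaptor LIMS2 (log2 fold change 1.00). BAY in hypoxia gave 5 rises, 3 with all 24 libraries in 1 fit, and 12 falls (background 16.5% and 21.4%), with FERMT1 at -0.81 and KANK1, a talin-binding protein, at -0.65, and BAY on TGF-β1 gave 5 rises and 13 falls (13.9% and 15.6%), with FERMT1 at 0.91 and LIMS2 at -0.58. The medians of the list were 0.37 with TGF-β1 and -0.28 with BAY in normoxia, beside -0.04 and 0.00 over all genes.

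Of 11 hemidesmosome genes and other laminin receptors, 9 fell and 2 rose with BAY in normoxia (background 23.3% lower and 20.6% higher), and 7 fell and 2 rose with BAY in hypoxia (21.4% and 16.5%). SDC4 and SDC2, syndecans that bind matrix through heparan sulphate, fell by 0.74 and 0.71 on the log2 scale in normoxia. With TGF-β1, 5 rose and 2 fell (background 29.5% and 32.5%): BCAM, a receptor for the laminin α5 chain, fell by 2.03 and PLEC, the plectin that ties β4 to keratin, rose by 1.10 on the log2 scale. BAY on TGF-β1 raised 2 and lowered 2 (background 13.9% and 15.6%), where set A alone gave 5 and set B alone 4 lower, with BCAM rising by 0.48 and PLEC by 0.39. In hypoxia 4 rose and 4 fell, close to the background of 29.2% and 31.6%, among them DAG1, the laminin receptor dystroglycan, which fell by 1.02, and LGALS3, galectin-3, which rose by 0.87 and with BAY in hypoxia by a further 0.74.

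Of 17 basement membrane partners of laminins, 10 fell and 5 rose with TGF-β1 (background 32.5% lower and 29.5% higher), and 6 fell in set A alone. FRAS1, a protein of the epithelial basement membrane, fell by 2.71 on the log2 scale to 69.5 ± 16.3 CPM and FREM1, its relative, by 3.51. FREM1 fell in hypoxia too, by 1.61, where AGRN, the proteoglycan agrin, rose by 0.78, with 5 rises and 5 falls in the list, near the background of 29.2% and 31.6%. NID2, a nidogen that bridges laminin and collagen IV networks, rose with BAY by 1.27 in normoxia, by 1.21 in hypoxia and by 0.56 on TGF-β1, and NTN1, a netrin, fell with BAY by 2.14 in normoxia. The list had 4 rises and 6 falls with BAY in normoxia (background 20.6% and 23.3%), 5 and 5 in hypoxia (16.5% and 21.4%), and 4 and 3 on TGF-β1 (13.9% and 15.6%). The rises with BAY in hypoxia were 8 with set A alone. Those on TGF-β1 were 9 with the replicate block within the TGF-β1 groups, 7 with the block over all groups, 7 with set A and 8 with set B. On TGF-β1 the netrins NTN1 and NTN4 stood at -0.90 and 0.57, and FRAS1 rose by 0.52 with BAY in hypoxia.

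Of 19 other integrin ligands, 4 rose and 12 fell in hypoxia (background 29.2% and 31.6%), 3 rose and 9 fell with BAY in normoxia (20.6% and 23.3%), and 5 rose and 9 fell with BAY in hypoxia (16.5% and 21.4%). TNC, tenascin-C, a matrix ligand of αV integrins, went from 98.6 ± 11.2 CPM in solvent to 841 ± 32.1 CPM with TGF-β1 (SD, n = 5 each; log2 fold change 3.04). CDH1, the E-cadherin bound by the αE subunit, fell by 2.88 with TGF-β1, where 8 of the list rose and 9 fell (background 29.5% and 32.5%). CCN2 and CCN1, matricellular ligands, fell by 3.21 and 1.93 in hypoxia and by 3.06 and 2.53 with BAY in normoxia. With set B alone these values were -2.07 for CCN2 and -1.18 for CCN1 in hypoxia and -1.95 for CCN2 with BAY, each still called. With BAY in hypoxia TNC fell by 0.94 and CCN1 by 1.11, the latter not called with all 24 libraries in 1 fit (adjusted p = 0.103). With BAY on TGF-β1, 3 rose and 9 fell (background 13.9% and 15.6%), 4 with replicates 1 to 3 alone. CCN2 and CCN1 were among them, but the groups of both overlapped and their calls were lost without any 1 of 5 libraries (TGF-β1 replicates 1 and 2, TGF-β1 with BAY replicates 3 to 5), without the count filter and with replicates 1 to 3 alone.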

How the data were processed

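The deposited table holds estimated counts per Ensembl gene for 24 libraries, made by the authors with Salmon on GRCh38, per the submitters' processing notes, which also name DESeq2. No versions, annotation release or strand setting is given in the sources used here. Of its values above 0, 48.6% were not whole, and the counts were rounded for testing. IDs without a symbol (6261, with 4.36% of counts) stayed in the fits.

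Genes were tested with edgeR 4.0.16 (R 4.3.3, limma 3.58.1): TMM scaling, filterByExpr, robust quasi-likelihood fits and Benjamini-Hochberg adjustment over all genes, at a threshold of 0.05. One fit held the 14 libraries of the hypoxia experiment (21316 genes) and another the 18 of the TGF-β1 experiment (21639 genes), with 8 normoxic libraries in both. The SE of a log2 value was worked back from its F statistic and is approximate. CPM was scaled over all libraries, and levels per kb used merged exons of protein-coding transcripts in GENCODE 29. Promoters came from RefSeq, GRCh38.p14, for 26 of the 36 genes.

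Values in every library are given for up to 4 called members that rose most and 4 that fell most per comparison, at 5 CPM or more, and for the 4 largest differences of the BAY effect. Up to 2 genes per partner list are named, and some list genes are not reported here. The members and lists were chosen with earlier results of these data known. Alternatives were DESeq2 1.42.0, its size factors, no count filter, a replicate block, all libraries in 1 fit, replicates 1 to 3, each library left out and, chosen after seeing the data, set A or B alone and a replicate block within paired groups. The labels do not say that replicate numbers pair libraries. From the data, deviations from the group means of same-numbered libraries correlated over 0.1 in all 5 pairs of the 2 TGF-β1 groups (0.43 to 0.69) and all 3 of the 2 hypoxic groups (0.20 to 0.48), which were taken as paired, and in not all pairs of any other 2 groups. Normoxic solvent libraries correlated with same-numbered libraries of the 2 TGF-β1 groups at 0.47 to 0.57 for replicates 1 to 4. For replicate 5, in set A with solvent and in set B with TGF-β1, the values were -0.40 and -0.23. These groups were not taken as paired. In both TGF-β1 groups replicates 1 and 2 are in set A and the others in set B. The same-number values alone thus cannot tell pairing by number from this split. Libraries of different numbers were not compared across groups. The code was tested on simulated data. Replicates differed beyond counting noise in all 39 pairs (chi-square per degree of freedom 5.17 to 43.9).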

Additional observations from a re-analysis of the deposited data

Results flagged for a closer look

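The BAY effect in hypoxia minus that in normoxia passed the test of the difference itself (edgeR's quasi-likelihood test, Benjamini-Hochberg adjusted) for 9 members. On the log2 scale the difference was 0.67 for ITGB3, 0.42 for ITGB1, 0.41 for ITGAV, 0.38 for ITGA5, 0.32 for LAMA5 and 0.31 for LAMC3, and -0.66 for ITGA2 and -0.58 for ITGB6. For ITGAV, ITGA5 and LAMC3 the fall with BAY was smaller in hypoxia. ITGAM, near 1 CPM in solvent, had a difference of 0.84 (adjusted p = 0.0433), which was lost without any 1 of 10 libraries, with the replicate block over all groups (adjusted p = 0.0614), without the count filter, with all 24 libraries in 1 fit, and with replicates 1 to 3, set A or set B alone. With all 24 libraries in 1 fit, LAMA5 lost its call (adjusted p = 0.137).

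The BAY effect with TGF-β1 minus that without it passed the test for 15 members. It was 1.14 for ITGA6, 0.89 for ITGA3, 0.84 for ITGA4, 0.75 for ITGAV, 0.66 for LAMC3, 0.61 for ITGA5 and 0.45 for LAMB3, all genes that BAY alone lowered, though the ITGA6 fall was not called with set B alone. It was -1.07 for LAMA3, -0.70 for LAMB1 and -0.66 for LAMA1, which BAY alone raised, and -0.37 for ITGB3 (-0.55 in set B alone). Of the genes at low levels, LAMA4 had 1.45, ITGB2 1.03 and LAMA2 0.49. LAMA4 was at 0.72 and LAMA2 at 0.25 in set A alone, and ITGB2 at 0.54 in set B alone, none of them called there, and LAMA4 and LAMA2 were also not called without normoxic BAY replicate 2. ITGA1 had -0.30 (adjusted p = 0.0428), not called without any 1 of 11 libraries, as was ITGB2, nor with the replicate block within the TGF-β1 groups (adjusted p = 0.0628). ITGA1 was also not called in set A (adjusted p = 0.101) or set B (0.111) alone. It lost its call without the count filter (0.0765) and with replicates 1 to 3 alone (0.160) as well. LAMA4 and LAMA2 were not called without the filter (0.0531 and 0.0651) or with replicates 1 to 3 alone (0.141 and 0.145).

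No library stood apart in any of 77 checks of a member in a group of 5, made with Dixon's test. That test looks for a lone library away from the rest, whereas every group of 5 splits into sets A and B. Libraries displaced together hide each other from it, so no conclusion on the libraries is drawn from these checks. The smaller groups were not part of them.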

How the results depend on the processing

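Of 126 called member values, 103 kept their call and direction in every alternative run, 23 lost the call in at least 1, 14 of them when 1 library was left out, and 0 changed sign. Of 56 called values of partner genes, 50 kept theirs and 0 changed sign. Of 56 partner list counts, 38 stayed within 1.5 times. The counts of called members and of all called genes did too, with these exceptions. For the oxygen by BAY difference, 2 members were lower, 1 with all 24 libraries in 1 fit, 4 in set A, 4 in set B and 2 to 4 with 1 library left out (4 without normoxic solvent replicate 4). Of all genes, 1882 were higher there, 3294 in set A, and 1689 were lower, 1018 to 1906 with 1 library left out (1025, 1018 and 1096 without normoxic BAY replicates 1, 2 and 3). For BAY added to TGF-β1, replicates 1 to 3 alone gave 3 members higher in place of 6 and 2160 genes lower in place of 3374, and 10 members were lower in set A and 8 with the replicate block within the paired groups, in place of 5. For the TGF-β1 by BAY difference, 5 members were lower, 11 in set A and 8 in set B, and of all genes 1531 were lower, 3562 in set A. The cause of these changes was not tested.

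With the replicate block over all groups of an experiment, the members called higher and lower were 16 and 8 in hypoxia, 11 and 10 with BAY in normoxia, 10 and 13 with BAY in hypoxia, 12 and 13 with TGF-β1, 7 and 7 with BAY added to TGF-β1, 7 and 3 for the oxygen by BAY difference and 11 and 7 for the TGF-β1 by BAY difference. In the 2 hypoxic and the 2 TGF-β1 groups the numbers were taken to pair the libraries. The block within these groups alone changed no member call other than those given beside the results. Size factors in place of TMM moved the median of all genes by at most 0.021 on the log2 scale. Members near or under 1 CPM (ITGAM, ITGB2, ITGA2B, LAMA4, LAMB4) rest on few counts.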
